A study of Caenorhabditis elegans with 2 samples.

Results

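Autosomal promoter peaks that lay in the promoters of several genes at once were taken from a chromatin immunoprecipitation (ChIP-seq) map of the homeodomain protein CEH-27 in Caenorhabditis elegans. A peak belonged to the set when its summit, the position of highest signal within the peak, lay on an autosome and fell from 1000 bp upstream to 200 bp downstream of an annotated 5′ end of at least 2 protein-coding genes, more than 200 bp from any tRNA gene. Of 2328 reproducible peaks, 1803 were autosomal, 1038 of these lay in a promoter away from tRNA genes, and 382 met the rule (36.8% of the autosomal promoter peaks). These comprised 324 peaks at divergent pairs, in which neighbouring genes are transcribed away from each other, 29 at pairs on the same strand, and 29 at 3 or more genes. The other 656 promoter peaks lay in the promoter of 1 gene.

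The worms were of strain OP139, which carries wgIs139, an integrated ceh-27 fosmid transgene with a C-terminal TY1, EGFP and 3xFLAG tag and an unc-119(+) marker, in an unc-119(ed3) background. Whole young adults, aged 73 hours, of both sexes pooled had been synchronised as starved L1 larvae after bleaching, and chromatin was precipitated with anti-GFP (the labels' antibody field reads ceh-27). Both samples, biological replicates 4 and 1, carried the same transgene and formed 1 group, and the control named for the experiment was not analysed here. Binding in whole animals cannot be assigned to a cell type, and the data give the position of the tagged protein, not the activity of the genes beside it. Nothing in the design allows a test between conditions, so the shares below carry exact Clopper-Pearson 95% intervals that cover the counting of peaks only and do not measure variation between animals.

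CEH-27 is of the NK-2 class of homeodomain proteins, whose members bind DNA with the core AAGTG. In the compact worm genome, many neighbouring genes are arranged head to head, so that a single stretch of intergenic sequence lies upstream of both. Other neighbours lie closely spaced on the same strand, often as operons whose genes are transcribed together and separated by trans-splicing. Because the RNA 5′ end of many worm genes is removed by trans-splicing, an annotated 5′ end can be a splice site that lies downstream of the place where transcription starts.

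The sequences at the summits of the strongest divergent pairs are shown because their peaks held the highest signals of the set. Each runs from 50 bases below to 50 bases above the summit on the plus strand of WBcel235 (the same assembly as ce11), as given by RefSeq, with AAGTG or its complement CACTT in capitals. The windows are chrIII:10759198-10759298, chrIV:654878-654978 and chrIII:4899886-4899986.
K01G5.10/tasp-1: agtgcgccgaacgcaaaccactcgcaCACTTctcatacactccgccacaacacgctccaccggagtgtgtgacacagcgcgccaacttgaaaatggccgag
rpl-15/K11H12.8: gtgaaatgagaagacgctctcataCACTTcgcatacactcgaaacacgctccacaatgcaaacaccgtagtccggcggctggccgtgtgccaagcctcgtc
nhl-2/tag-340: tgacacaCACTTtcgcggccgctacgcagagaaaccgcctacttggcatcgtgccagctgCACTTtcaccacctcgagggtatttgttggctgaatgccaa

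The next 3 windows belong to pairs on the same strand and lie at chrV:10897323-10897423, chrIII:8319242-8319342 and chrIII:8850781-8850881. The sec-61.G and sas-4 windows are among the strongest of that class and hold no match to the core, and the F44E2.9 window is shown because it holds 1.
F32D8.13/sec-61.G: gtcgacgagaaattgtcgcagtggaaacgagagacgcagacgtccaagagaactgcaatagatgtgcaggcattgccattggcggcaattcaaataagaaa
sas-4/F10E9.11: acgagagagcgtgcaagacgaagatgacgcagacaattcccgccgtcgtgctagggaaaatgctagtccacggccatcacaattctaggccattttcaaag
F44E2.8/F44E2.9: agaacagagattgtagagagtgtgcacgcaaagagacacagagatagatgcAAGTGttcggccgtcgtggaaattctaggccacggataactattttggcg

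The strongest peak of the set lay between K01G5.10 and tasp-1, a gene of the taspase family of proteases, on chromosome III. Its signal was 1263 in the reproducible set, 847 in replicate 4 and 430 in replicate 1, where it ranked 1 and 2 among all regions of each list. The signal is the authors' own value for a peak and its scale is not stated, so it serves here to order peaks within a list. The summit sat 59 bp upstream of tasp-1 and 726 bp upstream of K01G5.10, far to one side of the shared region.

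Next came rpl-15, which encodes a protein of the large ribosomal subunit, and K11H12.8, with a signal of 852, ranks of 7 in replicate 4 and 3 in replicate 1, and a summit 352 bp upstream of rpl-15 and 462 bp upstream of K11H12.8. The peak between nhl-2, which encodes an NHL-domain protein of the microRNA pathway, and tag-340 had a signal of 729 and ranked 3 in replicate 4 and 20 in replicate 1. Its summit was 851 bp upstream of nhl-2 and 572 bp upstream of tag-340, inside an annotated noncoding gene. These 3 peaks were near the top of both replicate lists, and their summit windows had a G and C content of 58.4%, 55.4% and 55.4%.

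The rest of the 12 strongest divergent peaks had signals from 432 to 694, and many of them flanked genes of protein synthesis or folding. The iff-2 peak, beside an eIF5A gene, had a signal of 694 and lay 72 bp upstream of iff-2 and 863 bp upstream of F54C9.14. Ribosomal protein genes were 1 partner at rpl-20/Y17G9B.5 (signal 593), rps-19/hsr-9 (573), where hsr-9 encodes a 53BP1 homologue, and ifet-1/rps-1 (570), where ifet-1 encodes a binding protein of the cap-binding factor eIF4E. The peak at drr-2/set-16, a translation factor gene beside a gene for an MLL-type histone methyltransferase, had a signal of 507 with the summit almost midway, 181 and 165 bp from the 5′ ends. Chaperone genes followed at C47E8.4/hsp-90 (440) and Y22D7AL.10/hsp-60 (432), of the cytosolic HSP90 and the mitochondrial chaperonin. The 12 were completed by larp-1/wip-1 (540), a gene for a La-related RNA-binding protein beside 1 for a WASP-interacting protein, and F56G4.6/wbp-4 (432). All 12 were among the 2328 strongest regions of each replicate.

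Summits of divergent pairs lay mostly between the annotated 5′ ends. The summit was upstream of both 5′ ends at 303 of 324 pairs (93.5%, interval 90.3 to 95.9), and at the other pairs it lay downstream of 1 of them. The rule itself favours this, because each window reaches 1000 bp upstream but only 200 bp downstream of a 5′ end. The part of the shared window sequence that lies between the 5′ ends is not given here, so the share is a description. By the annotation, 251 of the 324 summits (77.5%) were in intergenic sequence and 30 in a noncoding gene. The position alone does not tell which gene of such a pair, if either, the binding bears on. Where the summit lay between them, the 5′ ends were a median of 531 bp apart (quartiles 343 and 769). The nearer 5′ end was at a median of 165 bp and the farther at 343 bp.

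**Figure D1:**
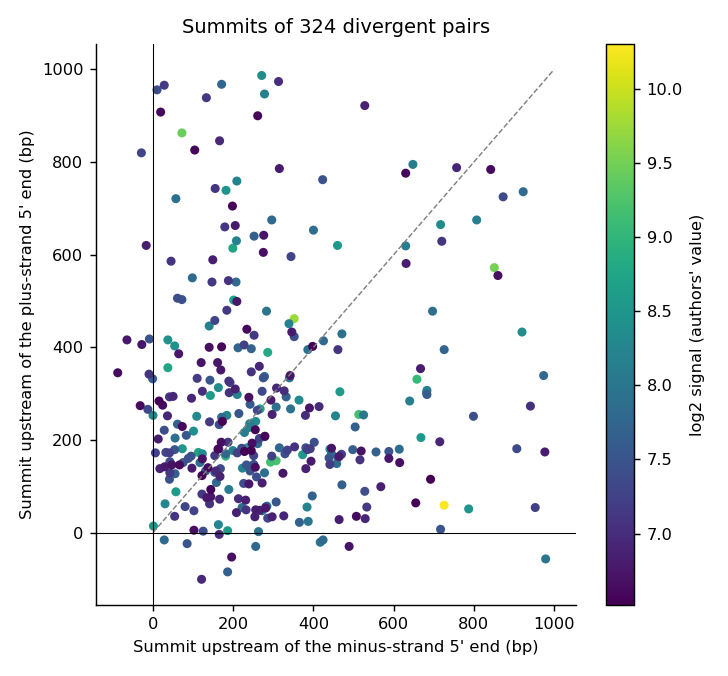
Position of each summit at the 324 divergent pairs, in bp upstream of the minus-strand gene's 5′ end (x axis) and of the plus-strand gene's 5′ end (y axis), coloured by the log2 of the authors' signal. Points right of and above the 0 lines lie between the 5′ ends (303 pairs), and the dashed line marks equal distances.

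Summits lay nearer to the plus-strand gene about as often as to the minus-strand gene. More than 1 in 3 of them were in the middle stretch of the gap, which the rule itself favours at wide gaps. The plus-strand gene was the nearer of the pair at 161 of 303 peaks (53.1%, interval 47.3 to 58.9). The distance to the nearer 5′ end was a median of 31.1% of the gap, and 133 of 303 summits (43.9%, interval 38.2 to 49.7) were in the middle one when it was cut into 3 equal stretches. Both 5′ ends lay within 500 bp of the summit at 231 of 324 pairs (71.3%), and within 200 bp at 60 (18.5%). Counted in steps of 50 bp, the most frequent distance was 251 to 300 bp upstream of the minus-strand gene (44 of 324) and 151 to 200 bp upstream of the plus-strand gene (60 of 324), with medians of 243.5 and 220 bp.

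The distance to the nearer 5′ end was longer where the gap was wider. At gaps of 1 to 300 bp the nearer and farther medians were 55 and 158.5 bp (70 pairs), and at 301 to 600 bp they were 154.5 and 292.5 bp (124 pairs). At 601 to 1000 bp they were 208.5 and 517.5 bp (95 pairs), and at 1001 to 2000 bp 423 and 846 bp (35 pairs). A gap bounds the distances it can hold, so part of this order is set by the gap itself, and as a share of the gap the nearer distance had medians of 28.5%, 33.8%, 28.8% and 35.7%. The median signal was 157, 159, 182 and 166 in the same 4 groups, without an order by gap.

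Of all 3022 autosomal divergent gene pairs whose promoter windows overlap, 381 had a reproducible summit in both windows (12.6%). The count exceeds the number of divergent peaks because peaks at 3 or more genes hold further pairs. The share was 16.8% of 525 pairs at gaps of 1 to 300 bp, 22.0% of 623 at 301 to 600 bp, 16.7% of 652 at 601 to 1000 bp and 3.94% of 1167 at 1001 to 2000 bp. Pairs more than 1000 bp apart share less window sequence, which moves their share down by construction. Of 55 pairs whose annotated 5′ ends touch or cross, 1 had such a summit.

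Sequence that lies in the windows of 2 or more genes made up 11.3% of all promoter window sequence (2.54 of 22.4 Mb) and held 36.8% of the promoter peaks. That was 151 peaks per Mb in shared windows, against 33.0 per Mb in windows of 1 gene. Density was 153 per Mb in divergent windows, 92.5 in same-strand windows and 268 in windows of 3 or more genes. Sequence outside protein-coding genes was 1.32 Mb of the shared windows and 8.84 of the 19.9 Mb in windows of 1 gene, which also reach farther from a 5′ end, so the densities were also taken at matched distances and in sequence outside protein-coding genes.

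At matched distance from the nearest 5′ end, shared windows still held more peaks per Mb. Within 100 bp the density was 151 per Mb in shared windows (exact Poisson interval 126 to 179) and 36.6 in windows of 1 gene (30.6 to 43.3). From 201 to 300 bp, where both kinds of window were densest, it was 265 (206 to 335) and 69.3 (57.1 to 83.3). The intervals overlapped in no distance bin up to 400 bp. They overlapped from 401 to 600 bp, at 49.2 (26.2 to 84.2) in shared windows and 26.0 (20.8 to 32.2) in windows of 1 gene, but not from 601 to 1000 bp, where 11 shared peaks gave 56.7 (28.3 to 101.4) and windows of 1 gene 19.5 (16.2 to 23.2). In sequence outside protein-coding genes alone the density was 250 per Mb in shared windows (329 peaks, 224 to 278) and 52.5 in windows of 1 gene (464 peaks, 47.8 to 57.5). Whether open chromatin, transcript level or gene class accounts for these densities was not tested.

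**Figure D2:**
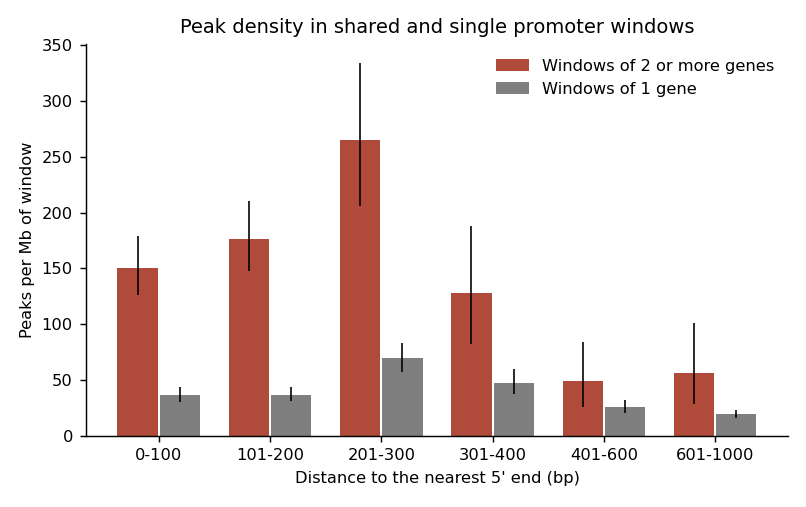
Peaks per Mb of promoter window (y axis) by distance to the nearest annotated 5′ end in bp (x axis), for windows of 2 or more genes (left bar) and of 1 gene (right bar), with exact Poisson 95% intervals over the counts of peaks. The 201 to 300 bp bins are the highest of each kind, at 265 and 69.3 peaks per Mb.

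All 5 autosomes carried shared promoter peaks, with 85 on I, 62 on II, 93 on III, 67 on IV and 75 on V. They were 38.5%, 31%, 44.5%, 33.5% and 36.1% of the promoter peaks of these chromosomes, although the shared part of window sequence varied only from 10.6% on V to 12.3% on III. Per Mb of shared window, chromosome III had 226 peaks, the most, and V had 111, the fewest. The rate of all promoter peaks per Mb of window is not given by chromosome, so this order is not shown to be particular to shared peaks.

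Peaks at pairs on the same strand were few, and their summits usually lay upstream of both genes. This held at 27 of 29 (93.1%, interval 77.2 to 99.2). Here too the windows, which lie mostly upstream of a 5′ end, favour such a position by construction, and the share is a description. At 16 of the 29 the gene bodies did not overlap, and the genes were then 47 to 209 bp apart (median 111.5 bp). Close spacing is known from worm operons, but the rule itself favours it, because both 5′ ends must lie near the same summit. The spacing over all same-strand pairs with overlapping windows is not given here. Operon annotation was not used here. At the other 13 the annotated gene bodies overlapped, and 7 of these had 5′ ends within 100 bp of each other, so that the pair is nearly a single annotated start. Of 1039 autosomal same-strand pairs with overlapping windows, 60 had a summit in both (5.77%). The share was 17.7% of 79 pairs at gaps of up to 100 bp and 12.5% of 112 above that and up to 500 bp. It was 6.26% of 511 above that and up to 1000 bp, and 0 of 337 beyond. Same-strand genes have less window sequence in common the wider their gap, which moves the share down by construction. How much of the fall this accounts for was not tested.

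The strongest same-strand peak lay at egl-30, the gene of a Gq alpha subunit, and C53H9.4, with a signal of 462 and a summit 50 and 169 bp upstream of them. At F32D8.13/sec-61.G, where sec-61.G encodes the gamma subunit of the Sec61 translocon, the signal was 450, with 250 in replicate 4 and 199 in replicate 1. The summit lay 230 bp upstream of sec-61.G, whose body ends 114 bp before F32D8.13 begins. The sas-4/F10E9.11 peak (339) lay 32 bp upstream of F10E9.11 and 704 bp upstream of sas-4, a centriole assembly gene that starts 89 bp after F10E9.11 ends. In both, the gene nearer to the summit was the first of the pair, as it must be for a summit upstream of both genes.

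The remaining strong same-strand peaks had signals from 198 to 292. They lay at rps-28/Y41D4B.4 (292), F55A11.6/F55A11.11 (289), ddp-1/ttc-7 (241), tub-2/Y71G12A.5 (234) and swp-1/rpl-23 (198), where rps-28 and rpl-23 encode ribosomal proteins, ddp-1 a mitochondrial import protein and tub-2 a tubby-like protein. The F55A11.6 summit differed from the rest in lying 85 bp inside its gene, in an intron, within 200 bp of the snoRNA gene F55A11.10. All 8 were among the 2328 strongest regions of each replicate.

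Peaks at 3 or more genes all lay in the promoters of genes of both strands, with exactly 3 genes at 28 of 29 and 4 at the other. The strongest lay at prp-19, K10D2.5 and emb-1 (signal 548), with prp-19 encoding a splicing factor and emb-1 a subunit of the anaphase-promoting complex, and its nearest 5′ end was 45 bp away and its farthest 764 bp. It was followed by cux-7/C07H6.2/lig-4 (469), with the gene of DNA ligase IV, rab-7/W03C9.5/mex-1 (371), with a gene of late endosomes and 1 of germline RNA regulation, and Y71H2AM.20/cox-6B/nduc-2 (305), with genes of respiratory complexes. Their ranks ran from 20 to 216 in replicate 4 and from 29 to 184 in replicate 1.

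Signals at shared promoter peaks ranged from 91.7 to 1263 with a median of 162, against 134 at peaks of 1 gene, whose quartiles were 109 and 197. The quartiles of the shared peaks were 117 and 235. Medians were 164 at divergent pairs, 165 at same-strand pairs and 153 at 3 or more genes. Shared peaks were 28.5%, 30.9%, 40.5% and 47.3% of the autosomal promoter peaks in 4 equal groups by signal, from the lowest to the highest. The groups overlapped widely, and the strongest peaks of 1 gene, up to 1072, were within the range of the shared ones.

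**Figure D3:**
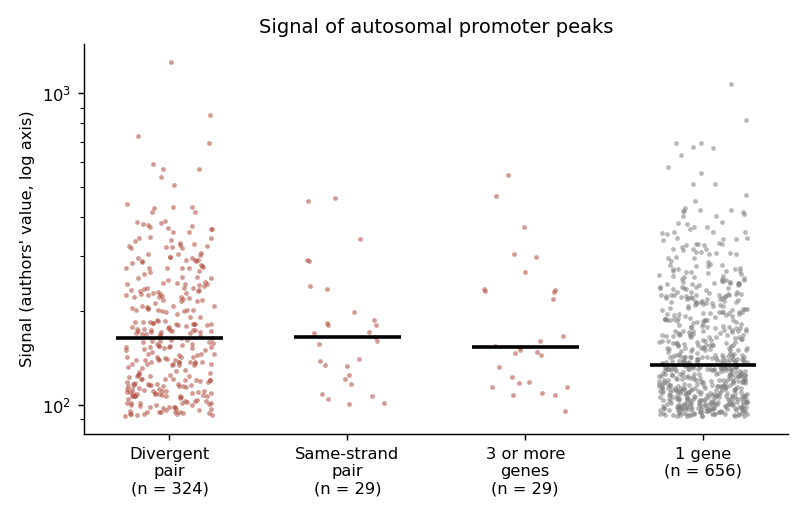
Authors' signal (log axis) of each autosomal promoter peak at divergent pairs, same-strand pairs, 3 or more genes and 1 gene, with horizontal bars at the medians of 164, 165, 153 and 134. The classes overlap over most of their range.

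Most shared promoter peaks were found again in each replicate. A summit within 100 bp was among the 2328 strongest regions of replicate 4 for 331 of 382 (86.6%, interval 82.8 to 89.9) and of replicate 1 for 329 (86.1%, 82.2 to 89.4). At peaks of 1 gene the shares were 80.3% (77.1 to 83.3) in replicate 4 and 75.3% (71.8 to 78.6) in replicate 1. Both replicates held 284 shared peaks (74.3%) and 392 of 656 peaks of 1 gene (59.8%), and neither held 6 shared peaks and 27 peaks of 1 gene. The reproducible set was itself made from these replicates, so the shares describe agreement and are no independent check of it.

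Agreement followed signal. With the shared peaks cut into 4 groups by signal, all 96 of the highest group and all 95 of the group below it were among the strongest regions of both replicates, against 75 of 95 in the next and 18 of 96 in the lowest. The signals of the 2 replicates correlated with a Spearman rho of 0.74 over the 369 shared peaks found in both lists and 0.56 over 615 peaks of 1 gene. These are correlations across peaks of the same libraries. The quartiles of signal lay farther apart among shared peaks, and the part of this in the difference was not tested. Genes and peaks are not independent replicates, and no p is given.

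The 382 peaks touched 790 genes, 4.58% of the 17242 autosomal protein-coding genes, and 8.13% had any promoter peak. Of 22 gene lists drawn by gene symbol, the cytosolic ribosomal proteins stood highest, with a shared peak at 42 of 79 genes (53.2%) and any promoter peak at 57 (72.2%). The lists were chosen with earlier results of these data known, and the shares are descriptions without a test.

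**Figure D4:**
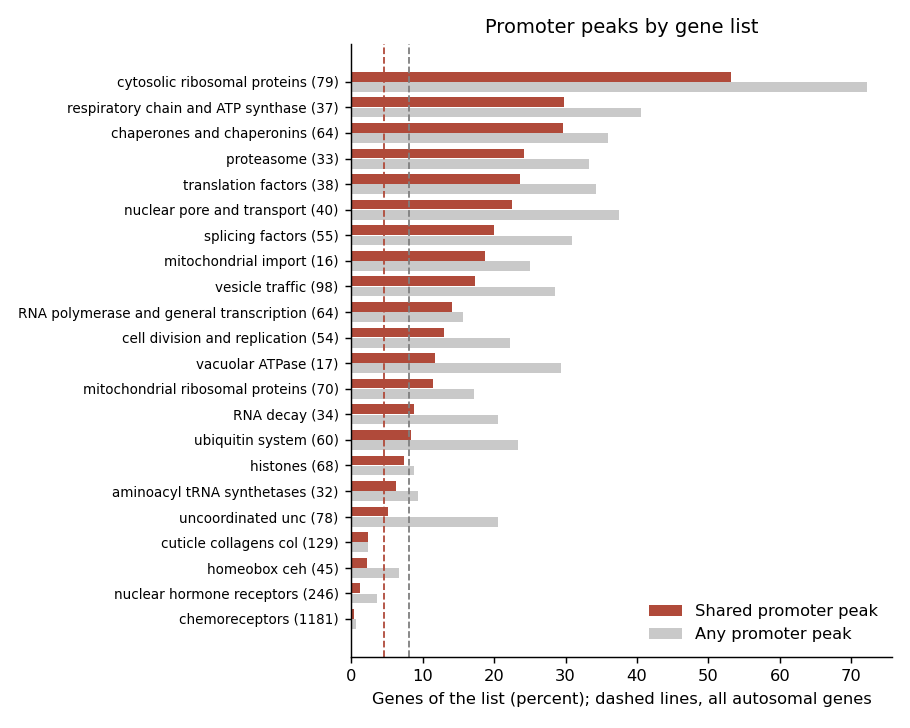
Percent of the autosomal genes of each list (number of genes in parentheses) with a shared promoter peak (upper bar) or any promoter peak (lower bar). Dashed lines mark the shares over all autosomal protein-coding genes, 4.58% for shared and 8.13% for any promoter peak, and ribosomal protein genes stand highest at 53.2% and 72.2%.

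Several other lists had shares above the 4.58% of all genes. Shared peaks lay at 11 of 37 genes of the respiratory chain and ATP synthase (29.7%), with atp-1, the ATP synthase alpha subunit, highest at 374. They lay at 19 of 64 chaperone genes (29.7%), 8 of 33 proteasome genes (24.2%, rpn-3 highest at 275) and 9 of 38 translation factor genes (23.7%). Among the 9 were eef-1A.1 and eef-2, the genes of the elongation factors that carry tRNA to the ribosome and move it along. Nuclear pore and transport genes had 9 of 40 (22.5%, npp-3 highest at 320), splicing factors 11 of 55 (20%), mitochondrial import 3 of 16 (18.8%, tin-13 highest at 140) and vesicle traffic 17 of 98 (17.3%).

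Intermediate shares were found for RNA polymerase and general transcription (9 of 64, 14.1%, taf-4 highest at 279) and cell division and replication (7 of 54, 13.0%, knl-3 highest at 204). The vacuolar ATPase had 2 of 17 genes (11.8%, vha-8 highest at 288), mitochondrial ribosomal proteins 8 of 70 (11.4%, mrps-7 highest at 186), RNA decay 3 of 34 (8.82%, exos-9 highest at 134) and the ubiquitin system 5 of 60 (8.33%, ubc-6 highest at 320). Histones had 5 of 68 (7.35%, his-41 highest at 167) and aminoacyl tRNA synthetases 2 of 32 (6.25%, ears-2 highest at 304). Mitochondrial ribosomal proteins were thus far below their cytosolic counterparts in these counts.

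The remaining lists had shares of genes with a shared peak near or below the 4.58% of all genes. A gene without a neighbour whose window overlaps its own cannot have a shared peak. The number of such genes in each list was not taken. Shared peaks lay at 4 of 78 unc genes (5.13%), whose loss impairs movement, with the netrin receptor gene unc-40 highest at 251, although 16 of the 78 (20.5%) had a promoter peak of some kind. They lay at 3 of 246 nuclear hormone receptor genes (1.22%, nhr-47 at 246), 1 of 45 ceh homeobox genes (2.22%, ceh-38 at 222), 3 of 129 col cuticle collagens (2.33%, col-38 at 225) and 5 of 1181 chemoreceptor genes (0.423%, sri-5 at 202). The strongest peaks of several of these lay opposite a gene of another list, with dnj-19 opposite nhr-47, rpl-5 opposite col-38 and npp-7 opposite unc-40.

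Few of these pairs joined genes of the same list. The share over all autosomal gene pairs was not taken, so the counts are descriptions. Both genes were listed at 18 of 324 divergent pairs, 1 at 116 and neither at 190, and for same-strand pairs the counts were 2, 9 and 18. Divergent pairs from a single list were rps-10/rpl-24.1, ribosomal proteins of either subunit (signal 244), rsp-2/rsp-1, splicing factors of the SR family (237), hsp-16.2/hsp-16.41, small heat-shock proteins (107), and the histone genes his-60/his-59 (99.4). The hsp-16.2/hsp-16.41 summit lay 144 and 77 bp upstream of its genes and ranked 1993 in replicate 4 and 2136 in replicate 1. The his-60/his-59 summit lay 88 bp inside his-60, in coding sequence, ranked 1324 in replicate 4 and had no summit of the replicate 1 list within 100 bp.

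Ribosomal protein genes, 79 of the 17242 autosomal protein-coding genes, shared their peaks mostly with genes of other kinds. The summit was then often nearer to the partner. At 32 divergent peaks with 1 ribosomal protein gene, a partner of another kind and the summit between their 5′ ends, the summit was a median of 302.5 bp upstream of the ribosomal protein gene (quartiles 254.5 and 382) and 183 bp upstream of the partner (154 and 318.5). The partner was nearer at 20, the ribosomal protein gene at 11, and at rps-23/dpm-3 both were 267 bp away. A further such pair, pab-1/rpl-30 (signal 106), had its summit 28 bp inside pab-1, the gene of a poly(A)-binding protein, and 406 bp upstream of rpl-30. At 15 peaks in the promoter of a ribosomal protein gene alone, the median was 305 bp. The partners included the DREAM complex gene lin-54 (opposite rpl-12, signal 427), the synaptotagmin gene snt-2 (opposite rps-29, 169) and the cytokinesis and traffic gene rab-11.1 (opposite rpl-7, 198).

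Sequence at the summits was richer in G and C than its surroundings in shared and single promoters alike. Within 50 bp of the summit the median G and C content was 48.5% at shared peaks and 49.5% at peaks of 1 gene, against 33.7% in windows centred 200 bp upstream of all autosomal genes. Mean content in 51-base windows was 52.3% at shared summits and 50.9% at summits of 1 gene. At 150 bp to either side it was 31.4% and 31.3% at shared peaks, against 36.9% on both sides at peaks of 1 gene. The G and C-rich stretch was thus narrower at shared peaks in these means, a difference that was not tested.

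**Figure D5:**
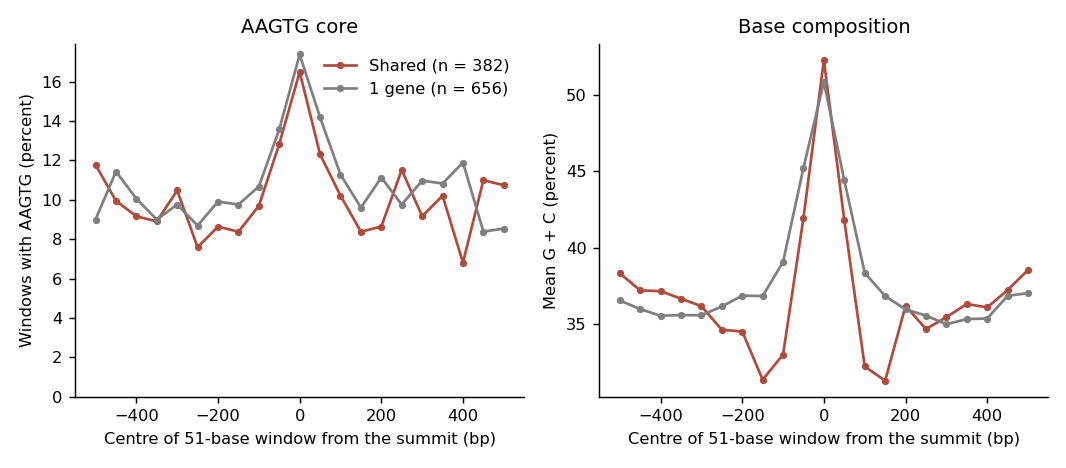
Percent of 51-base windows that hold AAGTG on either strand (left) and mean G and C content in percent (right), by distance of the window's centre from the summit in bp, for shared peaks (red, 382) and peaks of 1 gene (grey, 656). Both measures are highest at the summit, and G and C content falls to 31.3% at 150 bp from shared summits.

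The NK-2 core was present at a minority of the peaks. AAGTG or its complement CACTT occurred within 50 bp of the summit at 109 of 382 shared peaks (28.5%, interval 24.1 to 33.3). In windows of the same length 300 bp to lower and higher coordinates it was at 21.5% (17.5 to 25.9) and 17.5% (13.9 to 21.7). The first of these intervals overlapped that of the summit. At peaks of 1 gene the share was 30.8% (27.3 to 34.5), and in the upstream windows of all autosomal genes 20.8%. The share was 28.4% at divergent pairs, 20.7% at same-strand pairs and 37.9% at 3 or more genes, with wide intervals for the small classes. It did not follow signal, at 30.2%, 33.7%, 17.9% and 32.3% in the 4 groups of shared peaks by signal, from the lowest to the highest. The 3 strongest peaks all held it, as their printed sequences show, while 7 of the next 9 divergent peaks by signal did not.

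The longer form CAAGTG, which contains the core, stood farther above its surroundings. It occurred at 48 of 382 shared summits (12.6%, interval 9.41 to 16.3), against 2.88% and 2.62% in the windows 300 bp to lower and higher coordinates. At peaks of 1 gene it was at 11.9% (9.51 to 14.6), and in the upstream windows of all autosomal genes at 4.06%. Of the windows with AAGTG at shared peaks, CAAGTG was in 48 of 109 at summits, 11 of 82 at lower and 10 of 67 at higher coordinates. The number of summit windows with AAGTG but without CAAGTG lay between those of the flanks. GAGAGA occurred at 18.6% of shared summits (14.8 to 22.9), against 28.5% at peaks of 1 gene (25.1 to 32.1) and 7.08% over all genes. A match is a run of letters and not a demonstration of binding to it.

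Among 6-base words more frequent at shared summits than in their flanks, the 8 with the largest difference are given here, and all are rich in G and C. They were chosen by that difference, so that it is a description and no test. GCGCAC lay at 18.6% of shared summits, against 9.60% at peaks of 1 gene and 2.06% over all genes. GAGCGC lay at 18.8%, against 10.8% and 1.84%, and ACGCGC at 17.0%, against 13.1% and 2.35%. AGCGCG, whose letters overlap with both of the last on 1 strand or the other, was at 17.0%, against 11.0% and 1.75%. CGAGAC was at 17.5%, against 12.0% and 2.87%, CGCTCC at 16.5%, against 9.45% and 1.86%, and CGTGGC at 15.7%, against 7.47% and 2.19%. GACGCA alone was less frequent than at peaks of 1 gene, at 16.5%, against 20.4% and 3.16%. The windows compared differ in base composition, as given above, and its part in these shares was not tested.

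Words rich in A and T were less frequent at shared summits than beside them, and the same was seen at peaks of 1 gene. TTTTTT was at 17.5% of shared summits, against 35.3% and 36.4% at 300 bp to lower and higher coordinates, and at peaks of 1 gene at 15.9%, against 41.0% and 43.8%. TTTCAG, the usual sequence before worm splice acceptors, was at 6.28% of shared summits, against 24.9% and 30.1% in the same flanks, and at peaks of 1 gene at 5.49%, against 21.6% and 22.1%. It directly preceded 181 of 791 annotated 5′ ends of the genes at shared peaks (22.9%, interval 20.0 to 26.0), against 21.9% of 644 ends at peaks of 1 gene and 11.5% of all 25635 annotated autosomal ends. AG preceded 48.8%, against 44.3% and 26.4%. Distances from such ends are to the annotated end, which may be a trans-splice site.

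The summit itself was intergenic at 298 of 382 shared peaks (78.0%, interval 73.5 to 82.1), against 64.3% at peaks of 1 gene. It was in an intron at 5.24%, against 18.8%, in an untranslated exon at 7.33%, against 7.62%, and in a noncoding gene at 8.12%, against 6.40%. A gene annotated as ncRNA lay within 200 bp of 52 shared peaks (13.6%), against 12.7% at peaks of 1 gene. A snoRNA gene lay as close at 7 (1.83%, against 3.51%), a piRNA gene at 4 (1.05%, against 0.762%), an snRNA gene at 2 (0.524%, against 1.37%) and a miRNA gene at 1 (0.262%, against 0.152%). Being upstream of several genes makes an intergenic position likely by the rule alone.

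Only 2 divergent pairs held more than 1 shared peak. T26A8.4/pdtf-1 had peaks of signal 378 and 119 whose summits were 700 bp apart, the stronger 57 and 88 bp upstream of its genes and the weaker in an intron. ecps-1/atx-2, where atx-2 is the ataxin-2 gene, had peaks of 360 and 292, 579 bp apart, the stronger 51 bp upstream of atx-2 and the weaker 208 bp upstream of ecps-1. The weaker peak of T26A8.4/pdtf-1 ranked 1258 in replicate 4 and 3073 in replicate 1, while the other 3 were in the top 400 of both lists.

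The edge of the window decided membership for some peaks. Just inside the 1000 bp limit were K07C5.13/K07C5.3, with its second 5′ end 993 bp from the summit (signal 124), R107.5/cls-2 at 987 bp (330) and mif-3/F13G3.10 at 981 bp (165). Just outside were wht-3/har-1 at 1004 bp (107), W08A12.2/unc-132 at 1017 bp (106) and nstp-10/ehbp-1 at 1026 bp (238). In all, 98 promoter peaks had a second 5′ end from 1001 to 1500 bp away.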

How the data were processed

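Per the labels and file descriptions, the authors deposited a list of regions for each replicate, a pooled list and a reproducible set, kept by its irreproducible discovery rate, all on ce11. No aligner, caller or cutoff is given in the sources used here. Each deposited region carries a signal value of unstated scale, a −log10 q-value and a summit offset. The replicate and pooled lists each held 30000 regions, a round number shared by all 3. Every reproducible peak was in the pooled list with the same signal. The lists hold no read counts, so the depth of the libraries is unknown.

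Summits were counted from 1 and set against the 5′ ends of all transcripts of protein-coding genes in Ensembl release 115 (WBcel235), 1000 bp upstream to 200 bp downstream. The deposited −log10 q values reached a common ceiling at 72.3% of the members and were not used for ranking. A replicate region matched when its summit was within 100 bp and it was among the 2328 strongest of that list. Motifs were searched on both strands within 50 bp of the summit, in the RefSeq genome. The named peaks are the 12, 8 and 4 of highest signal among divergent pairs, same-strand pairs and peaks of 3 or more genes, the gene of highest signal in each list, and 3 peaks on each side of the window's edge. Other named pairs were chosen after their values were seen. The members, lists and motifs were chosen with earlier results of these data known. The assignment of summits to genes, the matching and the motif search were tested on simulated data. Computation used scipy 1.17.1, pandas 2.3.3 and numpy 2.4.6 under Python 3.11.15, and plots matplotlib 3.10.9. Alternatives covered the window, the 5′ ends, the distance from tRNA genes, signal, each replicate alone, the match and the motif distance, and the use of protein-coding transcripts only, which was added after the data were seen.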

Additional observations from a re-analysis of the deposited data

How the results depend on the processing

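No paired analysis was possible because the series holds 1 group of 2 samples. Of 86 values under alternative settings, 72 stayed within 1.5 times the count, or within the interval of the share, and 14 did not. A window of 500 bp upstream gave 10 same-strand pairs and 6 peaks at 3 or more genes, and 1 of 2000 bp gave 75 and 144. The 1164 reproducible peaks of highest signal held 249 shared peaks, 211 divergent pairs, 19 same-strand pairs and 19 peaks at 3 or more genes, fewer by construction. Of its members, 99.2% were matched in replicate 4 and 98.8% in replicate 1. When intervals had to overlap by 50% of each, the matched shares were 70.7% and 62.6%. AAGTG was at 16.5% of members within 25 bp of the summit and 41.4% within 100 bp, as the length searched changes. Each replicate alone gave 355 to 391 shared peaks, 304 to 329 divergent pairs, 23 to 34 same-strand pairs and 28 peaks at 3 or more genes, and 39 to 42 ribosomal protein genes with 1. Protein-coding transcripts alone gave 380 shared peaks. This setting, and the count of ribosomal protein genes under every setting, were chosen after seeing the data. The scale of the signal and the depth are unknown, the control was not analysed here, and the cause of the moved values was not tested beyond their construction.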
